A study of Mus musculus with 2 samples.

Results

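Heat shock cells were defined here as sorted lung group 2 innate lymphoid cells (ILC2s) that carried transcripts of the inducible 70-kDa heat shock proteins and no transcript of the cytokines Il5, Il13 and Il2. A cell was a member when it had at least 5 unique molecular identifiers (UMIs, 1 per captured transcript) of Hspa1a plus Hspa1b and none of Il5, Il13 and Il2. The members were thus selected on measured values, so these 5 genes are described without being counted as results. After barcodes under 500 genes or over 10% mitochondrial UMIs were set aside, 15481 were kept, of which 2078 were members, 844 in the WT library and 1234 in the Pac1-/- library. The 2 libraries held 20361 deposited barcodes in all. Comparison cells came from the same library, had no Hspa1a or Hspa1b UMI and no UMI of the 3 cytokines, and numbered 1314 in WT and 971 in Pac1-/-.

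The study asked how loss of PAC1, a dual-specificity phosphatase of MAP kinases encoded by Dusp2, changes lung ILC2s. The WT group was the C57BL/6J background, the Pac1-/- group carried the germline Dusp2 knockout on that background, and both held unchallenged mice of 6 to 8 weeks. Lungs were digested for 1 hour at 37 °C with shaking, ILC2s were enriched with magnetic beads and sorted as live Lineage- CD90.2+ ST2+ Sca-1+ cells, cells of 4 to 5 mice were pooled per genotype, and 13000 cells were loaded for droplet 3′ sequencing. No cell can be traced to a mouse, and a genotype is 1 library, so that genotype, pool and library cannot be told apart and no difference between genotypes has a replicate check. All intervals are 95% intervals that cover counting error only.

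In the heat shock response, unfolded proteins release the transcription factor HSF1, which binds repeats of the sequence GAA in alternating orientation, the heat shock elements, and switches on chaperones that refold or deliver proteins for degradation. HSP70 proteins bind unfolded stretches, HSP40 (DNAJ) proteins load them and start the ATP cycle, HSP110 exchanges the nucleotide, and HSP90 takes over late folding steps. Tissue dissociation is known to be able to start this program and immediate-early genes. Both libraries were digested in the same way, so a response begun in the animal and one begun during preparation cannot be told apart.

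Kept cells had a median of 4187 UMIs in WT and 5577 in Pac1-/-. Members had medians of 4026 and 5421 UMIs, and comparison cells 3187 and 4188, so every member was paired with 1 comparison cell of its library within 0.05 log10 units of depth where one was left. This gave 719 pairs in WT (85.2% of members) and 749 pairs in Pac1-/- (60.7%). The 125 and 485 members without a partner were deep cells, with medians of 7719 and 7097 UMIs outside the genes of the rule, and are absent from the paired comparison. The libraries shared 29 barcodes, and 8 members carried a barcode of the other library. Dusp2, the targeted gene, followed the labels among members. It gave 175 UMIs in 77 WT members, or 44.4 CPM (UMIs of a gene per 1000000 UMIs of the summed cells, without the 5 genes of the rule), and none in the 1234 Pac1-/- members, where 3 UMIs would have given 0.389 CPM, so it was at least 114-fold lower by this floor of 3 UMIs.

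Hspa1a (ENSMUSG00000091971) lies on chr17:34969190-34972156 and Hspa1b (ENSMUSG00000090877) on chr17:34956436-34959238 of GRCm38, both on the minus strand and both protein-coding. They are near-identical copies, so the split of reads between them is uncertain and their sum was used. Members with UMIs of both numbered 629 in WT and 980 in Pac1-/-, and Hspa1a made up 30.8% and 36.9% of the sum. The promoter windows of RefSeq (GRCm38.p6, 250 bases before to 50 after the start) are shown for the 2 genes of the rule and for 3 other chaperone genes, since heat shock elements are what this group of genes is known to share. Capitals mark every match to GAANNTTC or TTCNNGAA, the 2 ways in which a pair of units can meet, and to the longer GAANNTTCNNGAA, searched on both strands. The short motifs are parts of the longer one, so their matches overlap.

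Hspa1a, chr17:34972107-34972406, minus strand: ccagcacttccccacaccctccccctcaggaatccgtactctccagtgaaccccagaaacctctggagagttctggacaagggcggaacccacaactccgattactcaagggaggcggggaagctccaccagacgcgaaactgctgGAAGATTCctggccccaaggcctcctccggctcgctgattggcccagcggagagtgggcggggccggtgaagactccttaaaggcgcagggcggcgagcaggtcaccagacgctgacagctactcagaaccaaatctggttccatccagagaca
Hspa1b, chr17:34959189-34959488, minus strand: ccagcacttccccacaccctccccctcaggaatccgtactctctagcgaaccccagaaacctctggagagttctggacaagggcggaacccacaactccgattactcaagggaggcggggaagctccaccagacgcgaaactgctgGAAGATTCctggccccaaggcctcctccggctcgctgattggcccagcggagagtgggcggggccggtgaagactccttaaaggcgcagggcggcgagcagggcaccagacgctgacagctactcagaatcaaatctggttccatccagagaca
Hsph1, chr5:149636266-149636565, minus strand: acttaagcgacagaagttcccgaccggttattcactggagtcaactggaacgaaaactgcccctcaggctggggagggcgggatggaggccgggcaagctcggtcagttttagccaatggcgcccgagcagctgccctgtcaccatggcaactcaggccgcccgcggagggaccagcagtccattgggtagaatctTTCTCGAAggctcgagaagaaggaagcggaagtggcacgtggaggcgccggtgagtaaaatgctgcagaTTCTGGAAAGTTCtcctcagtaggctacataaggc
Hspe1, chr1:55087898-55088197, plus strand: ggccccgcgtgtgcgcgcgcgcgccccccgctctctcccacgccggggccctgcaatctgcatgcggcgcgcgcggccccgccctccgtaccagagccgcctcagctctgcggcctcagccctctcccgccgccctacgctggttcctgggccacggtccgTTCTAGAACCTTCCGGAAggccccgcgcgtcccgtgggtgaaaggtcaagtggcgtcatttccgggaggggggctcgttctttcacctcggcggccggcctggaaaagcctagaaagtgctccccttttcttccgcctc
Chordc1, chr9:18292017-18292316, plus strand: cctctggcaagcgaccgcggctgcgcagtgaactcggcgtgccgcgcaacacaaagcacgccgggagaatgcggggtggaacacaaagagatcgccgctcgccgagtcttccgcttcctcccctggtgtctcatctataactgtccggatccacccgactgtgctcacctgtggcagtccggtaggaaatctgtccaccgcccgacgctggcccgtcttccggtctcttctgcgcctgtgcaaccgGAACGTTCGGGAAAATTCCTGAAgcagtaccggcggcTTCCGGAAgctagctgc

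The windows of Hspa1a and Hspa1b differed at 4 of 300 positions and shared the match GAAGATTC, 104 to 97 bases before the start. GAANNTTCNNGAA was present in the windows of Hsph1, Hspe1, Hspd1, Chordc1 and Dnajb6, which are 5 of the 26 chaperone genes with a window (19.2%), and in those of 179 of 27025 genes overall (0.662%). GAANNTTC was found for 42.3% of these chaperone genes and 9.04% of all genes, and TTCNNGAA for 26.9% and 9.60%. A match describes the letters in the window and not binding, and promoters without one, such as those of Dnajb1, may hold less regular elements or elements farther away.

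Heat shock cells were 10.1% of what was kept in WT (exact binomial interval 9.42 to 10.7). In Pac1-/- they were 17.4% (16.5 to 18.3). Of the cytokine-negative cells alone they were 29.1% of 2905 (27.4 to 30.7) and 40.5% of 3049 (38.7 to 42.2). The share was higher in deeper cells, so these figures cannot be set side by side as they stand. Among cytokine-negative cells of 500 to 2000 UMIs, members made up 8.03% in WT (5.80 to 10.8) and 19.1% in Pac1-/- (15.4 to 23.4). From 2000 to 4000 UMIs the shares were 25.1% (22.9 to 27.4) and 19.97% (16.9 to 23.3), with overlapping intervals. From 4000 to 8000 UMIs they were 43.6% (40.1 to 47.1) and 46.6% (44.2 to 49.02), and from 8000 UMIs 72.1% (62.8 to 80.2) and 73.7% (68.6 to 78.3), again with overlapping intervals. In the plot of shares by depth the intervals of the libraries are apart only under 2000 UMIs.

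**Figure D1:**
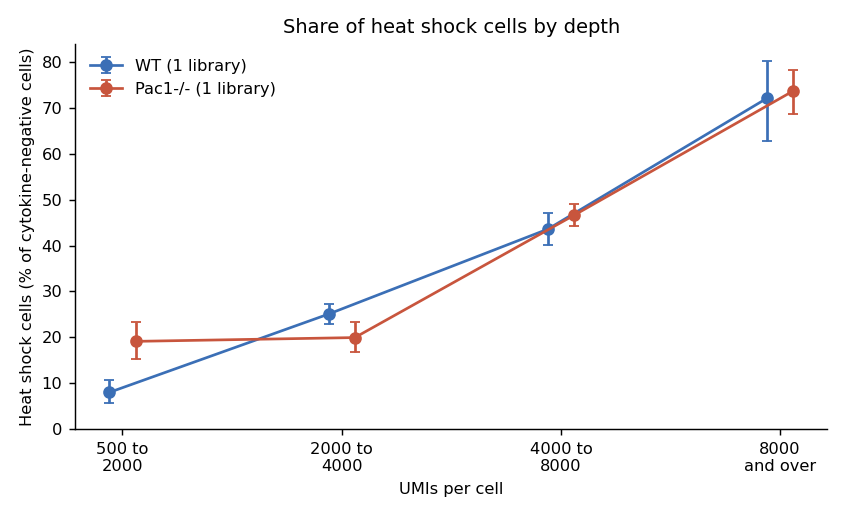
Heat shock cells as a percentage of cytokine-negative cells (y axis) by UMIs per cell (x axis), with exact binomial 95% intervals as bars, 1 library per genotype. Pac1-/- is above WT under 2000 UMIs (19.1% against 8.03%), and the intervals overlap in the other bands.

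When every cell was thinned to 1500 UMIs, at least 2 UMIs of Hspa1a plus Hspa1b were left in 33.6% of 2496 cytokine-negative cells of WT (31.8 to 35.5) and in 41.5% of 2706 of Pac1-/- (39.6 to 43.4). Without thinning these shares were 40.2% and 53.2%, and thinning left out 409 and 343 shallower cells. Cells with a cytokine UMI had thinned shares of 31.1% of 5138 in WT (29.8 to 32.4) and 44.6% of 3858 in Pac1-/- (43.1 to 46.2). At least 5 thinned UMIs were left in 20.8% of WT cells without (19.2 to 22.4) and 15.03% with a cytokine UMI (14.1 to 16.0), and in 26.8% (25.1 to 28.5) and 26.5% (25.2 to 28.0) in Pac1-/-. At least 5 UMIs without regard to cytokines were found in 34.0% of all kept WT cells and 46.8% of Pac1-/- cells. The cytokine-negative members were thus a fraction of the cells with these transcripts in either library. No cell type that should lack these genes was at hand as a background. In the barcodes left out by the filters the 2 genes still gave 0.126% of UMIs in WT and 0.221% in Pac1-/-, against 0.207% and 0.297% in kept cytokine-negative cells, and the part of free RNA in the membership of cells near the threshold was not tested.

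Within the members the load was broad. The WT member had a median of 18 Hspa1a plus Hspa1b UMIs (quartiles 9 and 34, highest 111), and the Pac1-/- member 23.5 (quartiles 11 and 49.8, highest 274). This was 0.420% and 0.436% of a member's UMIs at the median and up to 3.24% and 4.10%. Cells just inside the threshold, with 5 UMIs, numbered 62 in WT and 68 in Pac1-/-, with 216 and 216 CPM of Dnajb1. Cells just outside, with 4 UMIs, numbered 69 and 76, with 275 and 131 CPM. Pooled over more cells, Dnajb1 was at 180 CPM (146 to 219) with 3 to 4 UMIs and 265 CPM (233 to 301) with 5 to 9 in WT, and at 122 CPM (98.4 to 150) and 246 CPM (220 to 274) in Pac1-/-, so it was higher on the inner side of the threshold in both libraries. The threshold cuts a range of UMI counts, since 747 WT and 844 Pac1-/- cytokine-negative cells had 1 to 4 UMIs and belonged to neither set.

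Dnajb1, the HSP40 that works with inducible HSP70, and Hsph1, an HSP110 exchange factor, were the 2 markers that the rule did not use. Dnajb1 (ENSMUSG00000005483, chr8:83608193-83612653, plus strand) was at 698 CPM in paired WT members and 57.6 CPM in comparison cells, and at 866 and 84.5 CPM in Pac1-/-. Its log2 ratio of members over comparison cells was 3.60 (3.37 to 3.84) in WT and 3.36 (3.19 to 3.53) in Pac1-/-. Hsph1 (ENSMUSG00000029657, chr5:149614287-149636376, minus strand) was at 353 against 34.6 CPM in WT, a log2 ratio of 3.35 (3.05 to 3.66), and at 258 against 53.3 CPM in Pac1-/-, a log2 ratio of 2.28 (2.05 to 2.51). The heat shock label was therefore borne out by both markers. The label could not be checked in each cell. Of all members, 26.7% in WT and 25.04% in Pac1-/- had no UMI of either gene, compared with 77.2% and 67.8% of all comparison cells. The median member had 1 Dnajb1 UMI in either library. A missing UMI can therefore come from sampling and does not show that a cell lacked the transcript.

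To describe what else set the members apart, genes with at least 100 UMIs over the paired cells of a library were called at a ratio of 1.5-fold or more. In WT, 302 of 5658 genes were called higher (5.34%) and 72 lower (1.27%). In Pac1-/-, 287 of 6603 genes were called higher (4.35%) and 71 lower (1.08%). Of 5549 genes that could be compared in both libraries, 82 were called higher in each (1.48%) and 20 lower in each (0.36%). The counting intervals of all these 102 left out equality in both, which a 1.5-fold ratio over at least 100 UMIs nearly ensures. In each library alone the intervals did so for 302 of 302 higher and 72 of 72 lower genes in WT. In Pac1-/- they did so for 285 of 287 and 70 of 71, so the intervals add no support to the calls. Among these 5549 genes, 289 were called higher in WT and 190 in Pac1-/-, of which the 82 were 28.4% and 43.2%. Called lower were 63 and 47, of which the 20 were 31.7% and 42.6%. Across genes, which are not independent replicates, the log2 ratios of the 2 libraries had a Pearson r of 0.55 and a Spearman rho of 0.46. The comparison cells of the libraries were different cells, and depth and base composition of genes are shared by both. The 3 called genes with GAANNTTCNNGAA in their window were Hsph1, Hspe1 and Hspd1, among 61 genes higher in both that had a window (4.92%), against 28 of 4455 compared genes (0.629%). The windows of Hspe1 and Hspd1 overlap almost wholly, so they share these matches.

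**Figure D2:**
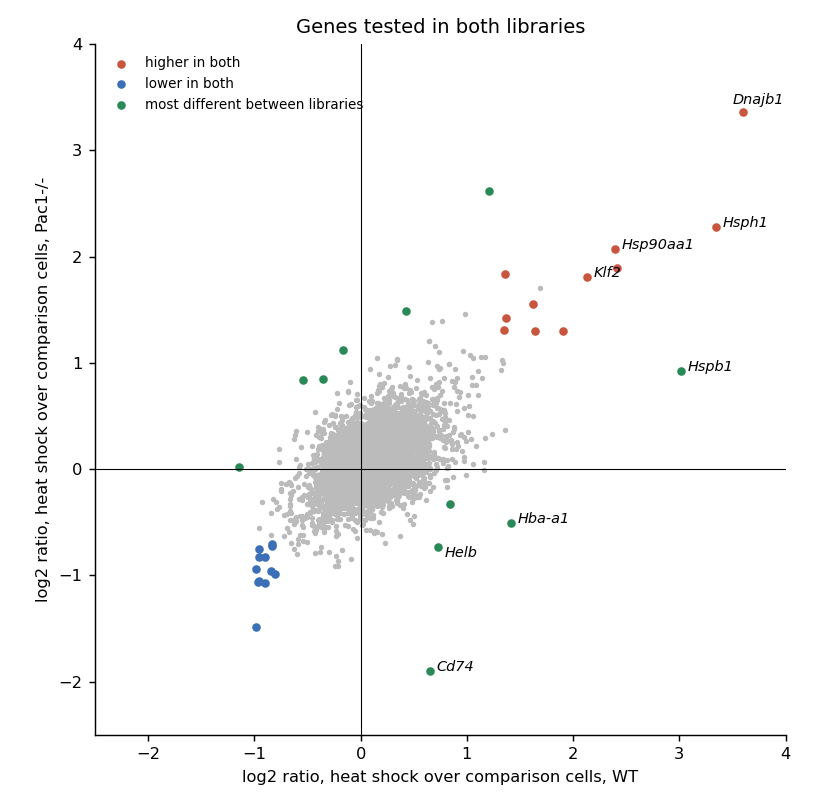
Log2 ratio of heat shock over comparison cells in WT (x axis) and Pac1-/- (y axis) for the 5549 genes compared in both libraries. Each point is a gene, and coloured points are genes chosen by the size of their ratios or of the difference between libraries. Dnajb1, Hsph1, Hsp90aa1 and Klf2 stand at the upper right, and Cd74, Hba-a1 and Helb have opposite signs in the 2 libraries.

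Of 24 cytosolic chaperones and other HSF1 targets, 11 of the 21 compared in WT and 10 of the 22 compared in Pac1-/- were higher in members, where 5.34% and 4.35% of all genes were. The list median was 0.61 in WT and 0.52 in Pac1-/- on the log2 scale, and the median of all compared genes 0.09 and 0.08. Hsp90aa1, the inducible HSP90, stood at 1596 against 303 CPM in WT (2.40, 2.29 to 2.50) and at 1558 against 371 CPM in Pac1-/- (2.07, 1.98 to 2.16). Dnaja1, another HSP40, had log2 ratios of 1.62 and 1.55. The constitutive chaperones were higher by less, with 1.34 and 0.998 for Hspa8 and 0.88 and 0.77 for Hsp90ab1. Dnajb4 (1.17 and 1.06) and Ier5 (0.74 and 0.94), a feedback activator of HSF1, were also higher in both libraries. In an alternative setting Ier5 fell to 0.52 in WT, under 1.5-fold.

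Much of the rest of the list was under 1.5-fold. Stip1 and Fkbp4, cochaperones of HSP90, had log2 ratios of 0.32 and 0.36 in WT and 0.41 and 0.32 in Pac1-/-. Chordc1, whose window holds 3 matches to the long motif, had 0.56 (0.20 to 0.91) and 0.35 (0.10 to 0.61), under 1.5-fold. Hspa4, an HSP110 relative of Hsph1, had -0.09 and 0.18, and Dnajb6 -0.26 and -0.02. The transcript of Hsf1 itself was at 50.5 against 43.9 CPM in WT (0.20, -0.15 to 0.56) and at 38.9 against 59.5 CPM in Pac1-/- (-0.61, -0.93 to -0.30). Hsf1 was thus called lower in Pac1-/-. Hsf2 was called lower in WT (-0.61, -1.08 to -0.14) and not in Pac1-/- (0.36, -0.05 to 0.78). These were 1 of 21 list genes in WT and 1 of 22 in Pac1-/-, against 1.27% and 1.08% of all genes. Neither call was kept in each alternative, since Hsf1 came to -0.31 in Pac1-/- and Hsf2 to -0.13 in WT. Bag3, Serpinh1 and, in WT, Hspbp1 had under 100 UMIs and were not counted. Bag3, a cochaperone that is a standard target of HSF1, gave 12.3 against 4.80 CPM in WT (1.36, 0.43 to 2.36) and 9.51 against 3.10 CPM in Pac1-/- (1.62, 0.60 to 2.75), with 36 and 34 UMIs in members.

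**Figure D3:**
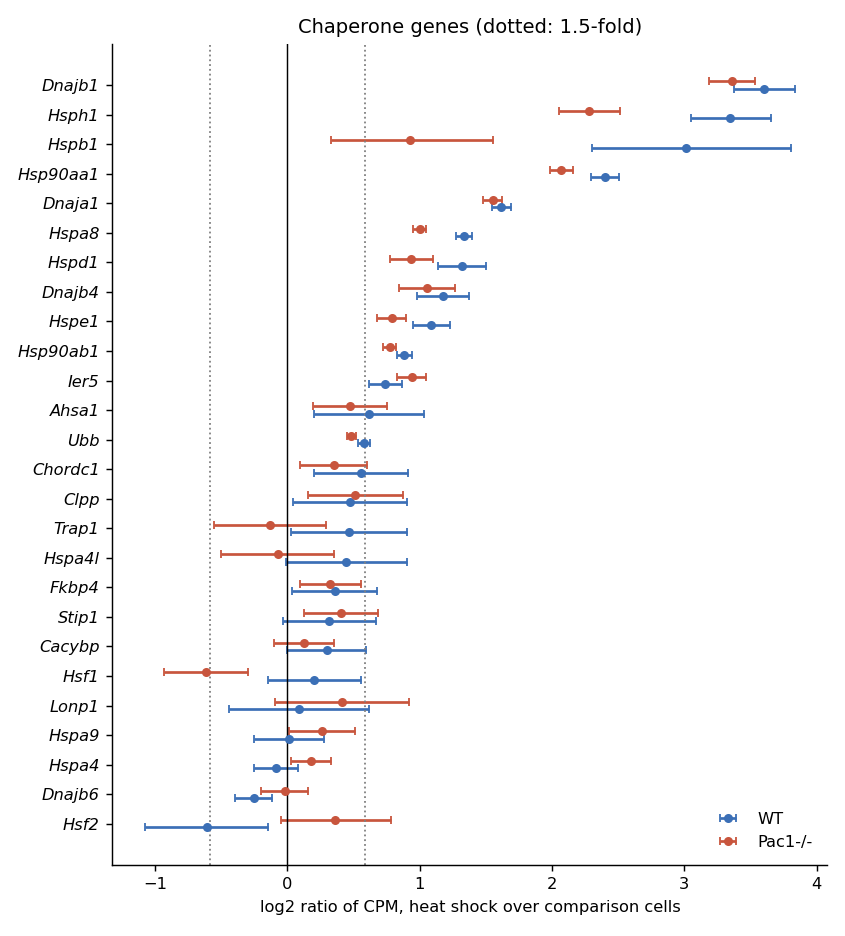
Log2 ratio of CPM in heat shock over comparison cells (x axis) for named cytosolic and mitochondrial chaperone genes compared in both libraries (y axis), WT in blue and Pac1-/- in red, bars as 95% counting intervals and dotted lines at 1.5-fold. Dnajb1 and Hsph1 lead in both libraries, and the HSP90 cochaperones Stip1 and Fkbp4 lie between 0 and the upper dotted line.

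Expression of the chaperones was graded by the load of Hspa1a plus Hspa1b. In WT cytokine-negative cells Dnajb1 went from 67.5 CPM at 0 UMIs through 265 CPM at 5 to 9 UMIs to 1450 CPM at 50 UMIs or more, and in Pac1-/- from 77.7 through 246 to 1625 CPM. Hsph1 went from 37.3 to 680 CPM in WT and from 50.1 to 460 CPM in Pac1-/-. Hsp90aa1 went from 322 to 2784 CPM and from 361 to 2550 CPM. Each of these was higher at every step from 5 UMIs on in both libraries. Median depth was also higher at the top step than at the lowest, 4272 against 3187 UMIs in WT and 5923 against 4188 UMIs in Pac1-/-, and CPM corrects the level for it but not the choice of cells. Il1rl1, the ST2 receptor chain used for the sort, showed no such course, with 965 CPM at 0 UMIs and 731 CPM at 50 UMIs or more in WT and 867 and 834 CPM in Pac1-/-. Gata3, a lineage transcription factor of ILC2s, was higher at the top step than at 0 UMIs, with 997 CPM (911 to 1088) against 846 CPM (819 to 874) in WT and 1003 CPM (962 to 1045) against 786 CPM (760 to 813) in Pac1-/-. At 5 to 9 UMIs it was at 813 and 689.6 CPM, below the level at 0 UMIs in both libraries. From there on it was higher at every step in Pac1-/- (729, 809 and 1003 CPM) but not in WT (865, 841 and 997 CPM).

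**Figure D4:**
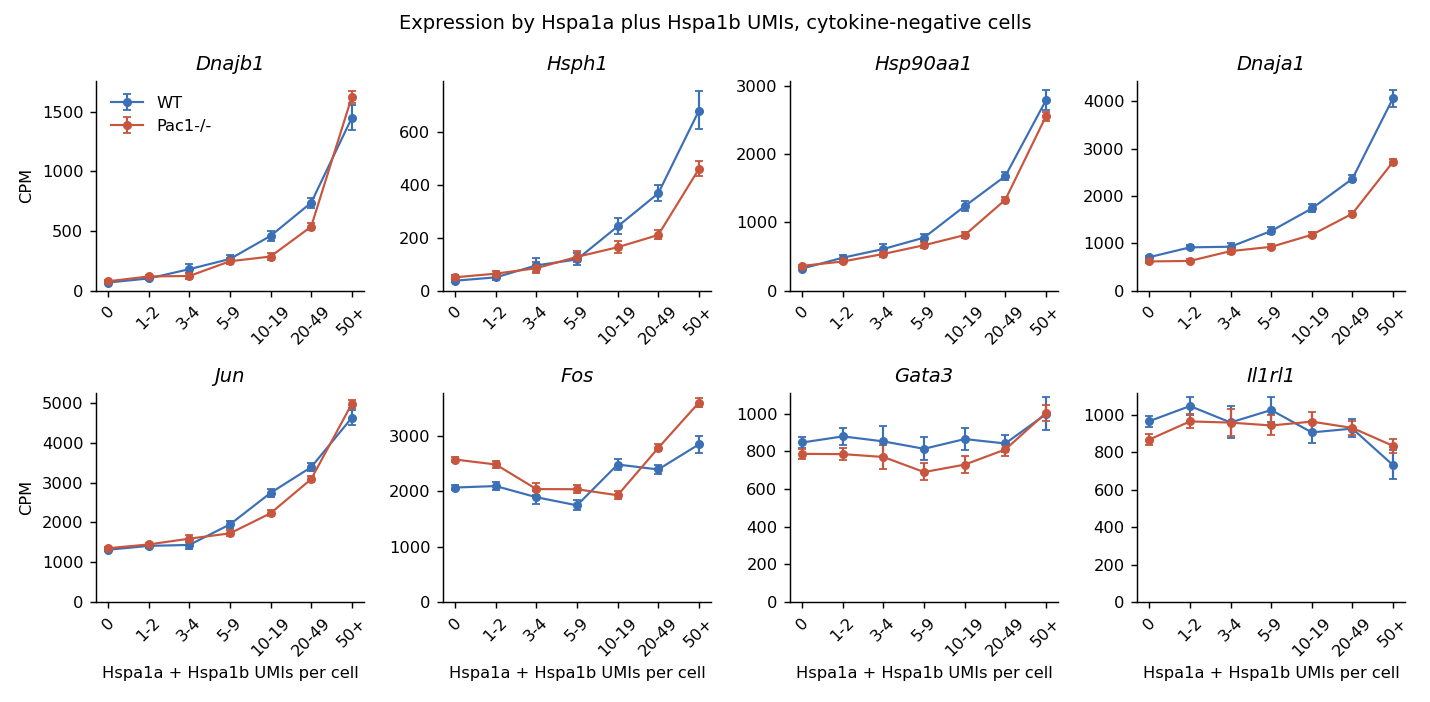
CPM over summed cells (y axes, from 0) by Hspa1a plus Hspa1b UMIs per cell (x axes) in cytokine-negative cells, WT in blue and Pac1-/- in red, bars as exact Poisson 95% intervals. Dnajb1, Hsph1, Hsp90aa1, Dnaja1 and Jun are higher at the top step than at 0 in both libraries (Dnajb1 1450 against 67.5 CPM in WT). Il1rl1 is lower at the top step in WT, and in Pac1-/- its intervals at these steps overlap.

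Chaperones of the other compartments split. Hspd1 and Hspe1 encode HSP60 and HSP10, the mitochondrial folding chamber, and share a bidirectional promoter. Hspd1 had log2 ratios of 1.32 (1.14 to 1.503) in WT and 0.94 (0.78 to 1.10) in Pac1-/-, and Hspe1 1.09 (0.95 to 1.23) and 0.79 (0.68 to 0.89). They were the 2 of 6 genes on the mitochondrial list that were called higher in either library. Hspa9, the mitochondrial HSP70, had 0.01 and 0.26. Of the genes of the endoplasmic reticulum and its unfolded protein response, 1 of 14 in WT and 4 of 16 in Pac1-/- were called higher, against 5.34% and 4.35% of all genes. The difference between the libraries was not tested. Herpud1, a component of the degradation pathway there, was the gene called in both (0.67 and 0.66). It fell to 0.342 in WT and 0.505 in Pac1-/- in alternative settings, under 1.5-fold. Hspa5, which encodes the chaperone BiP, had 0.43 (0.36 to 0.50) in WT and 0.59 (0.52 to 0.66) in Pac1-/-, while Hsp90b1, Calr and Canx stayed between -0.08 and 0.10 in the 2 libraries. By load, Hspa5 was higher at every step from 5 UMIs on. It was at 924 CPM with 0 UMIs, 1008 CPM with 5 to 9 and 1753 CPM with 50 or more in WT, and at 793, 868 and 1652.5 CPM in Pac1-/-. The list median was 0.09 and 0.25.

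Of the other stress lists, Ddit4 and Sqstm1 carried the calls, against 5.34% of all genes called higher in WT and 4.35% in Pac1-/-. Ddit4, an inhibitor of the kinase mTORC1, was at 140 against 54.9 CPM in WT (1.35, 1.09 to 1.63) and at 143 against 40.0 CPM in Pac1-/- (1.84, 1.57 to 2.12). The other 2 measurable genes of the integrated stress response, Atf4 and Ppp1r15a, had 0.34 and 0.22 in WT and 0.28 and 0.19 in Pac1-/-. Sqstm1, which encodes the autophagy receptor p62, had 0.72 and 0.97, and was the 1 of 7 oxidative stress genes called in either library. In alternative settings it fell to 0.32 in WT and 0.43 in Pac1-/-, under 1.5-fold. Of the proteasome genes, 1 of 36 in WT and none of 37 in Pac1-/- were called, below the shares of all genes. Their medians were 0.31 and 0.25, and those of all genes 0.09 and 0.08. Among 8 compared genes of apoptosis, Mcl1, an inhibitor of mitochondrial cell death, had 0.56 and 0.64. It was the 1 called higher, in Pac1-/- alone, where 4.35% of all genes were. In an alternative setting it fell to 0.45 there, under 1.5-fold. Called lower was 1 of 8 in each library, against 1.27% of all genes in WT and 1.08% in Pac1-/-. Of the relatives of Mcl1 that also protect cells, Bcl2a1b was called lower in WT (-0.85, -1.30 to -0.40) and had -0.41 in Pac1-/-. Bcl2a1d was called lower in Pac1-/- (-0.60, -0.98 to -0.22) and had -0.43 in WT. Across the alternatives Bcl2a1b ranged from -1.17 to -0.53 in WT and from -1.77 to -0.49 in Pac1-/-. Bcl2a1d ranged from -0.95 to -0.34 and from -0.80 to -0.40, so which library held the call depended on the setting. Bax had 0.07 and 0.15.

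Of the immediate-early genes, 5 of 16 compared in WT and 5 of 17 in Pac1-/- were called higher, where 5.34% and 4.35% of all genes were. The medians were 0.24 and 0.12, so the rest of the list lay nearer to equality. Jun was at 3307 against 1301 CPM in WT (1.35, 1.29 to 1.40) and at 3440 against 1385 CPM in Pac1-/- (1.31, 1.26 to 1.36). Egr1 had 1.33 and 1.02, Dusp1, a MAP kinase phosphatase related to PAC1, 0.86 and 0.83, and Btg2, an antiproliferative gene, 0.74 and 1.10. In an alternative setting Btg2 fell to 0.45 in WT, under 1.5-fold. Fos, the partner of JUN in the factor AP-1, had 0.06 (0.01 to 0.11) in WT and 0.05 (0.00 to 0.09) in Pac1-/-, which averages unlike members. By load, Fos was at 2064 CPM with 0 UMIs, 1744 CPM with 5 to 9 and 2841 CPM with 50 or more in WT, and at 2568, 2034 and 3592 CPM in Pac1-/-. Nr4a3, an orphan nuclear receptor induced by activation, had -0.54 and -0.55, under 1.5-fold, and Nr4a1 had -0.28 and -0.19. Ier3 was called lower in Pac1-/- members (-2.12), where 1 comparison cell held 66.5% of the comparison UMIs.

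NF-kB genes showed no common direction. Rel, which encodes the subunit c-Rel, was lower in members of both libraries, at 268 against 423 CPM in WT (-0.66, -0.79 to -0.53) and at 170 against 274 CPM in Pac1-/- (-0.69, -0.84 to -0.55). Nfkb1 had -0.61 and -0.45. These calls were not kept in each alternative. Rel came to -0.41 in WT and -0.28 in Pac1-/-, and Nfkb1 to -0.46 in WT, all under 1.5-fold. Nfkbia, the inhibitor that NF-kB induces, was above comparison cells by 0.46 in each library. By load it was at 2479 CPM with 0 UMIs, 2353 CPM with 5 to 9 and 5518 CPM with 50 or more in WT, and at 2314, 2042 and 5047 CPM in Pac1-/-. None of the 9 compared genes was called higher in either library, against 5.34% and 4.35% of all genes, and 2 in WT (Rel and Nfkb1) and 1 in Pac1-/- (Rel) were called lower, against 1.27% and 1.08%.

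Klf2 and Txnip, transcripts of quiescent lymphocytes, were among the genes higher in both libraries. They were the 2 of 5 genes called higher on the list of resting lymphocytes in WT, and with Cxcr4 the 3 of 6 in Pac1-/-, against 5.34% and 4.35% of all genes. Klf2 was at 192 against 43.9 CPM in WT (2.13, 1.85 to 2.42) and at 392 against 112 CPM in Pac1-/- (1.80, 1.64 to 1.97). It was detected in 23.1% of paired WT members and 9.87% of comparison cells, and in 41.5% and 23.0% of those of Pac1-/-. Txnip, an inhibitor of glucose uptake and thioredoxin, had 0.84 and 0.99. Cxcr4, a chemokine receptor, was called higher in Pac1-/- (0.80, 0.48 to 1.13) and had 0.18 (-0.22 to 0.58) in WT. With no condition on cytokines its Pac1-/- ratio was -0.020 (-0.17 to 0.13) and no longer a call, and Tcf7 could be compared in Pac1-/- alone (0.05). S1pr1, which KLF2 is known to drive, had too few UMIs to be compared, with 7.17 CPM in WT members and 3.91 CPM in Pac1-/- members.

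The genes with the largest ratios in both libraries included Dnajb1, Hsph1, Hsp90aa1, Gm14636, Klf2, Dnaja1, Phlda1, Ddit4, Jun, Plin2 and Dnaja4. Phlda1 had 1.37 and 1.42, Plin2, the coat protein of lipid droplets, 1.64 and 1.30, and the HSP40 gene Dnaja4 1.91 and 1.30. Gm14636, a gene model without an assigned function, had 2.42 and 1.89, with 150 and 142 UMIs in members. In the WT comparison cells 35.7% of its UMIs came from 1 cell.

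The 12 genes with the lowest ratios in both libraries included 2 transcripts that take up ribosomal RNA reads, Gm42418 and AY036118. Gm42418 was at 9456 against 18693 CPM in WT (-0.98, -1.004 to -0.96) and at 7359 against 20618 CPM in Pac1-/- (-1.49, -1.51 to -1.47). AY036118 had -0.90 and -1.08. Ribosomal protein genes were also a smaller part of the members, with a median of 26.8% of UMIs in paired WT members and 29.6% in comparison cells, and 26.3% and 29.0% in Pac1-/-. Of 81 such genes, 79 lay below 0 in each library. Mitochondrial UMIs were alike, at 2.50% against 2.51% in WT and 3.17% against 3.28% in Pac1-/-, while paired members held more genes per cell, 1499 against 1374 in WT and 1767 against 1663 in Pac1-/-. The part of these RNA measures in the ratios of single genes was not tested.

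The remainder of these 12 were Ramp3, Fam122a, Traf4, Jarid2, Raph1, Gm19585, 2810402E24Rik, Satb1, C9orf72 and Itgb2. Ramp3, a partner protein of the calcitonin receptor-like receptor, was at 58.7 against 115 CPM in WT (-0.96, -1.24 to -0.69) and at 36.1 against 75.2 CPM in Pac1-/- (-1.06, -1.37 to -0.75). Satb1, a chromatin organizer of lymphocytes, had -0.96 and -0.75, Jarid2, a subunit of the Polycomb complex PRC2, -0.84 and -0.96, and Itgb2, the beta chain of the leukocyte integrins, -0.84 and -0.71. Of the 12, only Gm42418 and Raph1 stayed past 1.5-fold in both libraries in each alternative that gave a value. Ramp3 came to -0.52 and Satb1 to -0.51 in Pac1-/-, and Jarid2 to -0.58 in WT. Itgb2 came to -0.54 in WT and -0.44 in Pac1-/-. None of the 20 genes reached 2-fold in both libraries.

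Some genes differed in their ratio between the libraries, and for several of them single cells held a large part of the UMIs. Hspb1, a small heat shock protein, had 3.01 (2.30 to 3.81) in WT and 0.93 (0.33 to 1.55) in Pac1-/-. Its UMIs lay in 25 WT members and 4 WT comparison cells, 1 of which held 77.8% of the comparison UMIs. In Pac1-/- they lay in 17 members and 11 comparison cells, 1 of which held 44.4%. When comparison cells could be used more than once, the ratios became 0.54 in WT and 2.48 in Pac1-/-, so the order of the libraries turned. Cd74, the invariant chain of MHC class II, had 0.65 in WT and -1.90 in Pac1-/-, and lay in 23 to 29 cells of each of the 4 sets. Only Cd74 and Helb, a DNA helicase, were called in opposite directions. Helb had 0.73 (0.14 to 1.34) and -0.73 (-1.20 to -0.27), over 39 to 107 UMIs a set. Neither gene kept its calls in each alternative. Helb came to 0.48 in WT and -0.055 in Pac1-/-, and Cd74 to -0.99 in WT and -0.22 in Pac1-/-. Other genes of this kind were AA467197, Rfx1, Kif23, Nampt, Fam102b and Gm12216 with the larger ratio in Pac1-/-, and Hba-a1 and Dab2ip with the larger ratio in WT. AA467197 was higher in members of both, by 1.21 in WT and 2.61 in Pac1-/-, where 1 of 33 cells held 26.1% of the member UMIs.

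The members carried the ILC2 markers at the level of their comparison cells. The 11 markers summed to 6242 against 6608 CPM in WT and to 6471 against 6074 CPM in Pac1-/-, and none was at 0. Gata3, the lineage factor, was at 832 against 892 CPM and at 792 against 790 CPM, and Il1rl1 at 904 against 973 CPM and at 913 against 866 CPM. Within the list the members had less Rora in both libraries (-0.54 and -0.62) and more Id2 (0.37 and 0.78) and Ly6a, which encodes Sca-1 (0.56 and 0.67). Of the 11 markers, Rora was called lower and Id2 and Ly6a were called higher in Pac1-/-, where 1.08% of all genes were lower and 4.35% higher.

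Other cell types were sparse in the members. Cd4 and Cd8a were at 0 in the paired cells of both libraries, and T cell markers summed to 741 against 712 CPM in WT and 965 against 959 CPM in Pac1-/-, mostly Trbc1, Trbc2 and Cd3g. B cell markers summed to 11.9 against 4.46 CPM in WT and to 22.9 against 43.4 CPM in Pac1-/-. Stromal markers were at 0 in WT members (4 of 4) and at 0.559 CPM in Pac1-/- members, against 4.80 and 12.4 CPM in comparison cells. Erythroid markers summed to 36.2 against 17.8 CPM in WT and to 145 against 565 CPM in Pac1-/-, where 1 comparison cell held 71.1% of the UMIs of Hba-a1. By cells with a UMI, Hba-a1 was more frequent in members of both libraries, at 9.18% against 3.76% in WT and 23.5% against 10.9% in Pac1-/-. After thinning to 1500 UMIs these were 5.35% against 1.59% and 12.7% against 5.04%. The other 3 erythroid markers were not more frequent in members. Hbb-bs was found in 1.11% against 1.25% in WT and 3.20% against 4.01% in Pac1-/-, and Hba-a2 in 0.834% against 0.974% and 2.67% against 2.67%. The part of free RNA in these values was not tested.

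The same contrast was made in cells with a UMI of Il5, Il13 or Il2, which the rule leaves out. It called 5.7% of 8092 genes higher and 1.57% lower in WT, and 10.8% of 7690 genes higher and 2.9% lower in Pac1-/-. It paired 1212 WT and 890 Pac1-/- cells with at least 5 Hspa1a plus Hspa1b UMIs with cells of none. The chaperone list had 11 of 23 genes higher in WT and 10 of 22 in Pac1-/-, with medians of 0.50 and 0.54, against 0.61 and 0.52 in the cytokine-negative cells. Across genes the log2 ratios with and without cytokines had a Pearson r of 0.56 in WT and 0.45 in Pac1-/-, over 5658 and 6590 genes. Of the genes higher in members, 71 of 302 in WT and 117 of 286 in Pac1-/- were also higher in this contrast, which called 192 and 618 of the genes compared in both kinds of cell. Genes of the response to calcitonin gene-related peptide were called lower with heat shock transcripts in 5 of 9 cases in WT and 7 of 8 in Pac1-/- among cytokine-positive cells. In the cytokine-negative members they were called lower in 0 of 6 and 1 of 5, against 1.27% and 1.08% of all genes, the 1 being Crem (-0.73, -0.94 to -0.52), a cAMP-responsive repressor. Across the alternatives Crem in Pac1-/- ranged from -1.48 to -0.37, so its call was not kept in each. The difference between the 2 kinds of cell was not tested.

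Between the genotypes, all members of each library were compared, with ratios taken relative to the median gene, since the median lay at 0.15 as counted. Of 7940 genes, 522 were at least 1.5-fold higher in Pac1-/- members (6.57%) and 789 lower (9.94%). As counted, 1002 were higher and 526 lower, so the balance of directions rests on the scaling. The chaperone list had none of 23 genes higher and 3 lower in Pac1-/- members, with a median of -0.11 relative to the median gene. The list gene with the largest called difference, Dnajb6, was at 146 against 273 CPM (-1.05, -1.17 to -0.92), and had -1.11 in comparison cells. Hsph1 was at 260 CPM in Pac1-/- and 318 CPM in WT members (-0.44, -0.54 to -0.33), whereas in comparison cells the ratio was 0.29. Dnajb1 was at 755 and 648 CPM (0.07, 0.01 to 0.14).

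Egr1 (-0.95, -1.04 to -0.85), Nr4a1 (-1.06, -1.12 to -1.01) and Tnf (-0.96, -1.13 to -0.79) were lower in Pac1-/- members, and Klf2 (0.92, 0.80 to 1.04) and Txnip (0.62, 0.53 to 0.71) higher. The same ratios in comparison cells were -0.68, -1.08, -0.95, 1.23 and 0.51, so none of these differences was confined to cells with heat shock transcripts. Of the lists, the immediate-early genes had 6 of 17 lower and none higher in Pac1-/- members, the genes of the response to calcitonin gene-related peptide 4 of 7 and none, the NF-kB genes 3 of 10 and none, the apoptosis genes 3 of 8 and 1, and the resting genes 1 of 6 lower and 3 higher, against 9.94% of all genes lower and 6.57% higher. The medians relative to the median gene were -0.11, -0.67, -0.41, -0.38 and 0.60 in members, and -0.091, -0.64, -0.43, -0.39 and 0.21 in comparison cells.

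The genes that differed most between genotypes had the same direction in members and comparison cells. Mmp16 gave 516 UMIs in Pac1-/- and 2 in WT members (6.90, 5.04 to 9.95), and Zfp990 450 and 0, at least 69.3-fold higher relative to the median gene. Next were Ifi208 (3.96), Gm47015 (3.65), Lgals3 (3.29), Rps27rt (2.97), Gm8797 (2.88) and Hbb-bs (2.37), which was at -0.49 when the condition on cytokines was dropped. On the lower side, beside Dusp2, stood Gm43305 with 71.9 against 987 CPM (-3.92), Rab6b (-3.58), Hist1h2ap (-3.37), Gm10076 (-3.25), Rpgrip1 (-3.11), 4930481A15Rik (-2.81) and Hist2h2aa1 (-2.68). Their ratios in comparison cells ranged from 2.55 for Gm8797 to 5.62 for Hbb-bs on the higher side, Zfp990 apart, which was also at 0 in WT comparison cells, and from -4.66 for Rab6b to -1.90 for Hist1h2ap on the lower side, Dusp2 apart. The UMIs of Hbb-bs lay in few cells. Among the paired Pac1-/- cells they were 84 UMIs in 3.20% of members and 930 UMIs in 4.01% of comparison cells, so its ratios rest on few cells. Rps27rt, Gm8797 and Gm10076 have near-identical copies elsewhere in the genome, and their values are uncertain.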

How the data were processed

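The deposited values were raw UMI counts per gene and barcode of 1 WT and 1 Pac1-/- library, which the authors made with Cell Ranger on mm10 (annotation release not given in the sources used here, version 6.1.1 in the submitters' processing notes, 4.0.0 in the file header) from 10x Genomics droplet 3′ libraries, keeping barcodes called as cells. Nothing was normalised. Totals were 56182065 and 60283285 UMIs. Cell Ranger counts reads by strand and drops reads shared by genes, which can lower near-identical copies.

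Members and comparison cells were chosen by the thresholds in the text, and members were paired without replacement (seed 7). UMIs were summed over cells, divided by totals without the 5 genes of the rule, and compared as CPM ratios. Ratios carry exact conditional binomial intervals, CPM exact Poisson intervals, and shares exact Clopper-Pearson intervals. With 1 library per genotype no p-values were computed. A gene at 0 was set to 3 UMIs for a bound. PCR copies are removed by UMIs, and the intervals hold no variation between mice.

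Named genes were the rule genes and markers, examples with the most UMIs or largest ratios from 14 gene lists, 12 genes each way by the smaller ratio of both libraries, 6 each way by the difference between libraries, and 8 each way by genotype. Genes named for being the only call of a list, for single cells or for lack of UMIs were added after their values were seen. The members and the lists were chosen with earlier results of these data known. The lists also covered resting genes, other effector products and mitochondrial genes, and 1 list gene is not analysed here. Some genes that the rule names are not reported here. Of the other effector products, 1 of 6 in WT and 0 of 7 in Pac1-/- were called lower and none higher, against 1.27% and 1.08% of all genes called lower; the 1 was Ccl1 (-0.75 and -0.21), and of the mitochondrial genes none of 13 in either. Promoters came from RefSeq (GRCm38.p6; 26 of 32 chaperone genes matched) and positions from GENCODE. Doublets were kept and removed in an alternative, by simulated neighbours, as the 8.70% of WT and 7.59% of Pac1-/- cells with the highest scores, which held 38 (4.50%) and 93 (7.54%) members but 2 (0.152%) and 1 (0.103%) comparison cells before pairing. The code was tested on simulated counts. Software was Python 3.11.15 with matplotlib 3.10.9, scikit-learn 1.9.0, pandas 2.3.3, numpy 2.4.6 and scipy 1.17.1.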

Additional observations from a re-analysis of the deposited data

Results flagged for a closer look

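In 5 genes the members and comparison cells differed in opposite directions in the 2 libraries, each with a counting interval that left out equality, and the difference itself was not tested because each genotype is 1 library. The log2 ratio in Pac1-/- minus that in WT was -2.55 for Cd74, -1.92 for Hba-a1, -1.46 for Helb, 0.43 for Cxcl2 and 0.20 for Btg1. For Cd74, 1 cell held 33.3% of the UMIs in WT members, 63.8% in WT comparison cells, 42.6% in Pac1-/- members and 23.6% in Pac1-/- comparison cells. For Hba-a1 the single comparison cell described above held most of the UMIs. For Helb no cell held over 10.3% of the UMIs of a set. Cxcl2, a neutrophil chemokine, had -0.29 in WT and 0.14 in Pac1-/-, and Btg1 -0.11 and 0.10, all under 1.5-fold. The signs were not kept in each alternative setting. Cd74 came to -0.99 in WT, Hba-a1 to 0.17 in Pac1-/- and Btg1 to -0.04 in Pac1-/-. Cxcl2 came to 0.07 in WT and -0.70 in Pac1-/-. Helb kept its signs but came to -0.055 in Pac1-/-.

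Barcodes left out by the filters, which entered no ratio of members over comparison cells, also held heat shock transcripts. Of those without a cytokine UMI, 1.30% of 1459 in WT (0.786 to 2.03) and 6.80% of 1736 in Pac1-/- (5.66 to 8.08) had at least 5 UMIs of Hspa1a plus Hspa1b, at a median of 593 and 596 UMIs per left-out barcode. Among the left-out barcodes over the mitochondrial limit these were 2 of 34 in WT and 67 of 217 (30.9%) in Pac1-/-.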

How the results depend on the processing

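No paired analysis was possible because each genotype has 1 library, and for the same reason no replicate could be left out. The chaperone medians, Dnajb1 and Hsph1 kept their direction in each alternative that gave a value for them. Of 1765 alternative values of the 154 named ratios past 1.5-fold, 3 reversed: Cd74 in WT to -0.99 with at least 10 heat shock UMIs, and, with no cytokine condition, Cxcr4 in Pac1-/- to -0.020 and Hbb-bs by genotype to -0.49. The cause was not tested.

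The share of heat shock cells in WT and Pac1-/- was 12.2% and 20.1% with at least 3 UMIs, 7.23% and 13.5% with at least 10, 34.0% and 46.8% with no cytokine condition, and 11.8% and 19.8% without barcodes over 2 times the median depth. The WT share was 10.9% with at least 1000 genes and 10.99% when cells were thinned before the rule. Genes higher and lower in both libraries numbered 188 and 66 with no cytokine condition, 140 and 38 with at least 50 UMIs per gene, 237 and 85 with at least 20, and 18 and 0 at 2-fold. The lower genes were 38 with comparison cells used repeatedly and 6 under either thinning. By genotype, 287 genes were higher and 426 lower after thinning before the rule, 1061 and 1287 with at least 20 UMIs, and 1002 higher as counted. Of the 82 higher genes, 38 were shared after thinning without matching, 42 after thinning before the rule and 44 with no cytokine condition, and of the 20 lower genes 5, 6 and 9. With comparison cells used repeatedly 53 and 11 were shared, and relative to the median gene 56 and 20. With all comparison cells 59 and 9 were shared, and with at least 3 UMIs 61 and 14. At this depth genes under 100 UMIs were not compared, and 485 deep Pac1-/- members had no partner.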
